A study of Mus musculus with 27 samples.

Results

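Cycling natural killer (NK) cells of mouse MC38 tumours are described here from single-cell RNA-seq of CD45+ immune cells. A cell was taken as a cycling NK cell when its barcode held at least 2 UMIs (unique molecular identifiers, each standing for 1 captured RNA molecule) of Ncr1 plus Klrb1c, at most 1 UMI of Cd3d, Cd3e and Cd3g together, none of Csf1r or Adgre1, and at least 2 UMIs of Mki67 plus Top2a. Barcodes needed at least 1000 UMIs, at least 500 genes and at most 10% mitochondrial UMIs. The rule found 260 cells among 20299 kept cells. Of these, 171 came from the WT matrix and 89 from the KO matrix.

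MC38 is a colon adenocarcinoma cell line grown as a tumour in mice. Both genotypes carried a floxed Ogt gene, which encodes O-GlcNAc transferase, the enzyme that attaches O-GlcNAc sugar to nuclear and cytoplasmic proteins. WT mice were Ogt-flox. KO mice were Ogt-flox Lyz2-cre, in which the Cre recombinase is driven from the Lyz2 locus, which is active mainly in macrophages, monocytes and neutrophils; NK cells are not its target. The labels name 2 single-cell samples per genotype, but 1 count matrix per genotype was available, and every barcode carried the same suffix. Which of the 2 samples the cells came from could not be told. The labels give neither the animals, their age nor the day of harvest. With 1 matrix per genotype there was no replicate, no difference was tested, and the intervals given are 95% exact intervals that cover counting error only.

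NK cells are innate lymphocytes that kill target cells by releasing perforin and granzymes and that secrete interferon-gamma and chemokines. Unlike T cells they carry no rearranged antigen receptor, and the cytokines IL-2, IL-12, IL-15 and IL-18 drive their growth and activation. A dividing cell first copies its DNA in S phase with the MCM helicase, the sliding clamp PCNA and newly made histones, under E2F transcription factors. In G2 and M phase it makes cyclin B, mitotic kinases, kinetochore and spindle proteins. Their genes often carry DNA elements called CHR, which MuvB complexes bind, and CCAAT boxes. Mki67 (the proliferation antigen Ki-67) and Top2a (a topoisomerase that untangles DNA) are made from S phase into mitosis, so the rule leaves out cells in early G1.

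Cycling cells held more UMIs each than the other NK cells. Their median was 15710 UMIs per cell in WT (range 2564 to 48728) and 18649 in KO (3962 to 53194), against 7033.5 and 7148.5 in the other 778 WT and 546 KO NK cells, which had at most 1 UMI of Mki67 plus Top2a. Together the cycling cells held 2756916 UMIs in WT and 1855046 in KO. Their median mitochondrial share was 1.22% in WT and 1.25% in KO. Scrublet, which scores barcodes likely to hold 2 cells, marked 8 WT and 2 KO members as doublets, 4.68% and 2.25%. The matrices shared 25 kept barcodes by sequence, and 1 WT and 0 KO members were among them. A cell with more UMIs has more chance of reaching 2 UMIs of Mki67 plus Top2a, so the share called cycling depends on depth.

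Every member carried UMIs of NK markers that the rule did not use. The 17 remaining NK markers (such as Gzma, Klrk1, Klre1, Eomes and Txk) summed to 13023 CPM (UMIs of a gene per 1000000 UMIs of all cells in the class) in WT and 13526 in KO, and none of them was at 0. Barcodes with at most 50 UMIs, which hold free RNA, had 3248 and 2891 CPM of them, and cycling CD8 T cells, described below, 2247 and 2516 CPM. Every one of the 171 WT and 89 KO cells had at least 5 UMIs of them, a low limit at this depth that does not by itself set NK cells apart. The CD8 T cell markers Cd8a and Cd8b1 together stood at 3.63 and 1.08 CPM, below the 88.8 and 149 CPM of the empty barcodes. Macrophage markers, of which 10 were left after the rule's own, summed to 99.0 CPM in WT and 80.9 in KO, against 3546 and 2601 in such empty barcodes. The 7 T cell markers left after the Cd3 genes summed to 111 and 120.2 CPM (empty barcodes 707 and 787), and those of CD4 T cells to 6.17 and 7.55 against 203 and 308 in empty barcodes. Those of gamma-delta T cells stood above empty barcodes, at 46.1 and 37.2 CPM against 26.2 and 20.01, through Trdc and Trdv4, which the other NK cells also carried (Trdc 34.6 and 35.6 CPM). The 8 B and plasma cell markers reached 38.1 and 25.3 CPM. Markers of ILC1, the tissue-resident relatives of NK cells, summed to 74.4 and 38.3 CPM over 8 genes. Of these, Itga1 was seen in 34 WT and 20 KO members, Gpr34 in 13 and 7, and Il7r in 15 and 3. Zfp683, an ILC1 and residency factor, had 0 and 0 UMIs, and Cxcr6 had 12 and 0. The other NK cells held 98.6 and 77.3 CPM of the ILC1 list. The monocyte list was high, at 1214 and 1650.1 CPM, through Plac8 (879 and 1237 CPM), which the other NK cells also carried at 1019.6 and 1339 CPM. Neutrophil markers summed to 129 and 131 CPM and dendritic cell markers to 395 and 306; empty barcodes held 4058 and 4494 CPM of the dendritic list. Fibroblast and endothelial markers summed to 123 and 168 CPM, against 123 and 102 in empty barcodes, nearly all of it Pecam1 (122 and 168 CPM). Markers of ILC2 and ILC3 stood at 82.3 and 49.6 CPM and of red cells at 1.81 and 3.77. Those of mast cells and basophils were above empty barcodes, at 4.72 and 19.4 CPM against 2.02 and 1.03, with 33 of the KO UMIs from Mcpt8. Epithelial markers stood at 38.8 CPM in WT and 12.4 in KO (empty barcodes 24.9 and 28.2); of the 26 Krt8 and 38 Krt18 UMIs in WT, 95.3% together sat in 1 cell that Scrublet marked as a doublet.

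Birc5, the survivin subunit of the chromosomal passenger complex, marks mitotic cells and was not part of the rule. Its level was 285 CPM (interval 266 to 306) in WT cycling cells and 307 CPM (283 to 334) in KO cycling cells. In the other NK cells it was 8.89 and 4.78 CPM. At least 1 Birc5 UMI was seen in 100 of 171 WT and 61 of 89 KO members.

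The rule's limit did not lie at a gap: members with 2 or 3 UMIs were mostly closer to NK cells with 1 UMI than to members with 4 to 9. In WT, 638 NK cells had no UMI of Mki67 plus Top2a, 140 had 1, 47 had 2, 20 had 3, 29 had 4 to 9 and 75 had 10 or more; in KO the numbers were 487, 59, 22, 7, 16 and 44. A list of 52 G2 and M phase genes (without Mki67 and Top2a) summed to 1970 CPM in WT cells with 1 UMI, 2158 in those with 2 and 2367 in those with 3, then to 5765 in those with 4 to 9 and 10759 in those with 10 or more. The same list in KO stood at 1834, 1997, 2630, 6540 and 8909 CPM. A list of 43 S phase genes in the same groups stood at 1583, 1560, 2060, 3723 and 4648 CPM in WT and, in KO, at 1540, 1790, 2777, 2836 and 3871 CPM. In the same groups Birc5 stood at 24.5, 28.2, 31.5, 197 and 447 CPM in WT and at 6.60, 19.7, 10.5, 293 and 409 CPM in KO. In WT all 3 measures were closer to the level at 1 UMI than to the level at 4 to 9 in members with 2 or 3 UMIs. In KO this held for Birc5 and the G2 and M phase list, while the S phase level of the 7 members with 3 UMIs was next to that of the members with 4 to 9.

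The promoters of the cycle genes, whose RNAs were high together in these cells, were read for CHR, CCAAT and E2F motifs. Windows from 250 bases before to 50 bases after each RefSeq start (GRCm38.p6) were searched on both strands. The CHR letters TTTGAA were found in 32 of 50 windows of the G2 and M phase list (64.0%), in 5 of 35 windows of the S phase list (14.3%) and in 17.9% of all 32851 windows. CCAAT was in 74.0% of G2 and M phase windows, 65.7% of S phase windows, 88.2% of 17 histone windows and 37.4% of all windows. Both motifs stood together in 25 of the 50 G2 and M phase windows and in 6.95% of all. The E2F letters TTTCCCGC were in 17.1% of S phase windows, 2.0% of G2 and M phase windows and 1.07% of all, and TTTGGCGC in 14.3%, 2.0% and 0.514%. A match is a string in a window, not a measured binding site.

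The rule genes Mki67 and Top2a, the mitotic genes Cdk1 and Ccnb2, and the helicase gene Mcm6 are shown for the 120 bases before their start, written 5′ to 3′ along the gene. These genes and this window length were chosen after the matches had been seen, and capitals mark the CHR, CCAAT box and second E2F motif on either strand. All lie on the minus strand of GRCm38.p6.
Top2a, chr11:99024190-99024309: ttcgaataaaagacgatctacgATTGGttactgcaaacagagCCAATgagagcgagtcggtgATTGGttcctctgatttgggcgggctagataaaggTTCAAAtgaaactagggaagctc
Mki67, chr7:135716380-135716499: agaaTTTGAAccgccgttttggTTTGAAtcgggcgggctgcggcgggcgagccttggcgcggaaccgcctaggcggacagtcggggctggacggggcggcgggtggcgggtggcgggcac
Cdk1, chr10:69352913-69353032: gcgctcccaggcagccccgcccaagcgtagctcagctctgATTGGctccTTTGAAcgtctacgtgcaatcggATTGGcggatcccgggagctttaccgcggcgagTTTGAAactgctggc
Ccnb2, chr9:70421555-70421674: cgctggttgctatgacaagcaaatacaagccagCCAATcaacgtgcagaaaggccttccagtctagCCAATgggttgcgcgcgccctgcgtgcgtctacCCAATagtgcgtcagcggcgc
Mcm6, chr1:128359706-128359825: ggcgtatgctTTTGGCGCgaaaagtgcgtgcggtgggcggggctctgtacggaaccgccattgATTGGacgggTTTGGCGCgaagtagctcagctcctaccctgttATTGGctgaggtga
Top2a holds 3 CCAAT boxes and a CHR match, Cdk1 a pair of each, and Ccnb2 3 CCAAT boxes with no CHR letters in these bases. Mki67 holds a pair of CHR matches and no CCAAT box here. Mcm6 differs in holding a pair of E2F matches beside its pair of CCAAT boxes. Of 11 genes read at this window length, 2 held no match, the mitotic genes Birc5 and Nusap1. The other 4 not printed held CCAAT boxes alone: Cenpf, Kif4 and Pcna 1 each and Mcm5 a pair.

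The gene targeted in KO mice had a KO to WT ratio in cycling NK cells whose counting interval holds 1. Ogt stood at 82.0 CPM (71.6 to 93.4) in WT and 72.2 CPM (60.5 to 85.6) in KO cycling NK cells, a ratio of 0.881 (interval 0.706 to 1.10). In the other NK cells it stood at 118 and 116 CPM. In macrophages, the cells that Lyz2-cre targets, the ratio was 0.702. The UMIs may come from parts of the transcript outside the floxed exons, so these levels do not measure the deletion. Oga, which removes O-GlcNAc, stood at 98.7 and 96.5 CPM in the members. Lyz2, replaced in part by cre in KO, had 88 UMIs in WT and 1 in KO members, against 1396 and 25.7 CPM in empty barcodes, which follows the labels. Egr2, an activation-induced transcription factor, was low, with 39 and 22 UMIs over all members.

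A smaller share of the kept cells was cycling NK cells in KO. They were 171 of 10213 kept WT cells (1.67%, Clopper-Pearson interval 1.43 to 1.94) and 89 of 10086 kept KO cells (0.882%, 0.709 to 1.08), a ratio of 0.527. All NK cells made up 9.29% of kept cells in WT and 6.30% in KO, a ratio of 0.678. Within the NK cells, 18.0% (15.6 to 20.6) were cycling in WT and 14.02% (11.4 to 17.0) in KO, a ratio of 0.778, and these intervals overlap. NK cells, still called at full depth, were then thinned to 4000 UMIs, which puts the Mki67 and Top2a limit at 1 depth and left out 108 WT and 75 KO cells. The shares cycling were then 11.9% and 9.15% (ratio 0.771). Thinned to 2000 UMIs they were 6.85% and 4.56% (ratio 0.666).

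Other classes gave other values. CD8 T cells (at least 2 UMIs of Cd8a plus Cd8b1 and of Cd3 genes) were cycling in 40.7% (37.7 to 43.8) of 1030 WT and 24.8% (22.6 to 27.2) of 1357 KO cells. Macrophages were cycling in 4.10% (3.08 to 5.32) of 1294 WT cells and 6.07% (4.84 to 7.498) of 1318 KO cells, with a KO to WT ratio of 1.48. Thinned to 4000 UMIs, the ratio was 0.585 for CD8 T cells and 1.57 for macrophages. Among all kept cells with at least 2 UMIs of Mki67 plus Top2a, NK cells were 14.1% in WT and 8.70% in KO. Differences between these classes were not tested, since each rests on 1 matrix per genotype.

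Genes of DNA replication and mitosis had the largest list medians in cycling over other NK cells of the same matrix. Genes with at least 50 UMIs over the groups compared and at least 20 CPM in 1 of them were counted as measured, and the rule genes Mki67, Top2a, Ncr1 and Klrb1c were left out. In WT, 376 of 6251 measured genes (6.02%) were at least 2-fold higher and 72 (1.15%) at least 2-fold lower in the cycling cells. In KO, 391 of 6116 (6.39%) were higher and 206 (3.37%) lower. Of 5907 genes measured in both matrices, 280 (4.74%) were higher and 34 (0.576%) lower in both. The 10 lists of cycle genes together held 166 of the 376 higher genes in WT and 147 of the 391 in KO, so 210 and 244 of the higher genes were on none of them. Cells chosen by Mki67 and Top2a carry other cycle genes with them, so these levels describe the cells and support nothing further.

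Most S phase genes were higher in the cycling cells. In WT, 30 of 38 measured S phase genes were at least 2-fold higher in cycling cells, with a median ratio of 3.83, beside a median of 0.991 over all measured genes. In KO, 28 of 36 were, with a median of 3.86 beside 0.959. Rrm2, the small subunit of ribonucleotide reductase that makes DNA precursors, stood at 124 CPM in WT cycling cells and 4.45 in the others, and at 94.3 and 2.61 CPM in KO. Cdc6, which loads the helicase on origins, had a ratio of 24.9 in WT and, from 68 against 2 UMIs, of 84.4 (22.5 to 711) in KO. Tyms, which makes thymidylate, was 8.96 and 7.10 times higher. The sliding clamp gene Pcna moved less, from 174 to 400.1 CPM in WT and from 161 to 344 CPM in KO. Origin and fork genes as a list were higher in 32 of 36 cases in WT and 32 of 34 in KO. The helicase subunits Mcm5 and Mcm6 had ratios of 3.43 and 1.92 in WT and 3.53 and 1.95 in KO. Among nucleotide synthesis genes, 10 of 27 were at least 2-fold higher in WT and 14 of 27 in KO.

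Replication-dependent histones, which package new DNA, held the largest ratio named by rule in cycling over other NK cells. H2ac10 had 275 UMIs in WT cycling cells and 2 in the other NK cells, a ratio of 314 (interval 86.1 to 2607), and 167 against 1 UMIs in KO, a ratio of 414 (73.4 to 16469). The linker histone H1f5 stood at 568 CPM against 9.85 in WT and at 490.0 against 7.82 in KO. H3c3 and H2ac4 had WT ratios of 43.4 and 50.9. The list counted 15 of 17 genes higher in WT and 13 of 16 in KO. Histone genes are near-identical copies, so the split of UMIs among them is uncertain.

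Cyclins, mitotic kinases and spindle genes had the highest list medians. All 17 measured cyclins and mitotic kinases were at least 2-fold higher in WT cycling cells (median 15.6), as were 12 of 13 in KO (median 20.5). Cdk1, the kinase that starts mitosis, had ratios of 26.3 in WT and 32.6 in KO. Ccna2, cyclin A2, stood at 93.2 CPM against 2.06 in WT; in KO it was 79.8 against 0.652 CPM, the latter from 3 UMIs, so the ratio of 122 has an interval of 41.1 to 601. Spindle and cytokinesis genes were higher in 28 of 28 cases in WT and 22 of 23 in KO. Nusap1, which bundles spindle microtubules, had ratios of 51.7 and 76.1. Kif4, a chromosome-arm motor, had 41.1 and 40.5, and Stmn1, which takes microtubules apart, 11.6 and 10.7.

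Kinetochore genes were higher in 22 of 26 cases in WT and 18 of 22 in KO, led by Cenpf at 52.9 and 67.7. Condensin and cohesin genes split: 11 of 15 passed 2-fold in WT, the condensin subunit Smc2 at 8.57, while the cohesin subunits Stag1 and Stag2 stood at 1.23 and 1.03. These list medians rest on low levels in the other NK cells: with 5 CPM added to every level, the WT medians were 6.45 for spindle genes, 6.31 for cyclins and mitotic kinases, 5.52 for G2 and M phase, 5.20 for kinetochore genes and 5.87 for histones. Thinned to 2000 UMIs, WT medians were 10.3 for spindle genes, 3.64 for G2 and M phase and 1.73 for kinetochore genes. In KO they were 8.66 for spindle genes and 2.41 for G2 and M phase, beside 1.88 for S phase. Among genes with at least 200 UMIs, G2 and M phase and kinetochore medians were 6.94 and 4.38 in WT and 3.59 and 3.04 in KO. Hmgb2, an abundant chromatin protein, stood at 2541 CPM against 502 in WT and 2251 against 440.5 in KO.

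**Figure D1:**
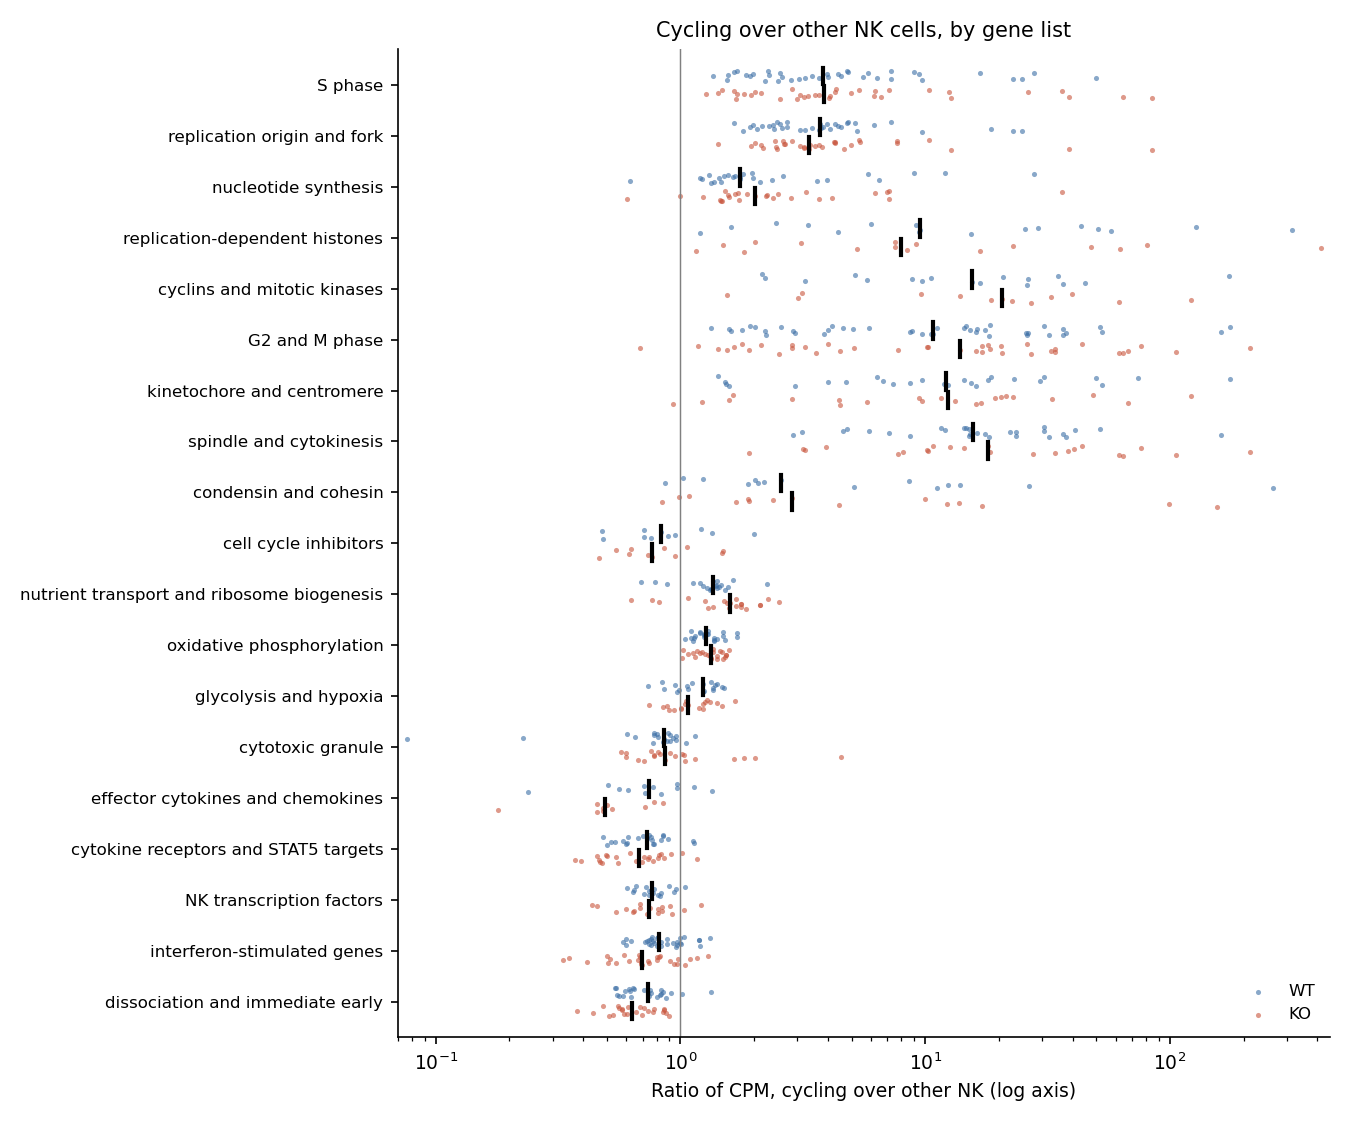
Ratio of CPM in cycling over other NK cells for each measured gene, by gene list, on a log axis, for WT and KO; the black bar is the list median. In the main values the mitotic lists lie above the replication lists (median 15.7 in WT for spindle genes, 3.83 for S phase), while granule, cytokine and receptor lists lie around or under 1.

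Growth genes differed by smaller factors. All 24 of 24 oxidative phosphorylation genes had a ratio above 1 in both matrices, from 1.04 to 1.70 in WT and from 1.02 to 1.58 in KO, and none reached 2-fold. Among genes of nutrient transport and ribosome biogenesis, 1 of 21 passed 2-fold in WT (median 1.36) and 4 of 21 in KO (median 1.59). Ran, which drives nuclear transport and spindle assembly, had ratios of 2.27 and 2.53, and the nucleolar protein gene Npm1 1.40 and 1.59.

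Genes of NK function had list medians under 1. Of 21 measured cytotoxic granule genes, 0 were at least 2-fold higher and 2 lower in WT (median 0.855), and 2 higher and 0 lower in KO (median 0.863). The pair lower in WT was Gzmf and Gzmg, with ratios of 0.0765 and 0.227 from 6 members each; in KO their ratios were 0.601 and 4.53, and with every cell weighted equally Gzmg stood at 0.601 in WT. The perforin gene Prf1 stood at 793 CPM in cycling and 826 in other WT cells. Ccl5, a chemokine of mature effector cells, stood at 617 CPM in cycling and 2577 in other WT cells and at 798 and 4432 CPM in KO, with ratios of 0.239 and 0.180, the first of the genes named by rule as lower in both matrices. In the 171 WT members the 10th, 50th and 90th percentiles of Ccl5 were 0, 169 and 2402 CPM per cell, so high levels lay in part of the cells.

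Other genes named by rule as lower were Tcp11l2 (0.256 and 0.194), the histone demethylase gene Kdm5b (0.312 and 0.231), the kinase gene Cdk14 (0.379 and 0.266) and the transcription factor gene Klf3 (0.379 and 0.187). Emp1, Sfxn3 and Mmp12 had WT ratios of 0.360, 0.394 and 0.272. With 5 CPM added to every level the WT ratio of Sfxn3 was 0.506. The KO ratio of Emp1 was 0.383, and 0.631 with every cell weighted equally. Mmp12 was seen in 13 WT members, and 3 cells held 46.8% of its UMIs in the other WT NK cells. Among cell cycle inhibitors, 2 of 11 were at least 2-fold lower in WT, the antiproliferative gene Btg1 (1422 to 685 CPM) and Foxo3 (ratio 0.478). Cytokine receptors and STAT5 targets had medians of 0.729 in WT and 0.678 in KO, with 2 and 7 genes at least 2-fold lower. Il2rb, the shared IL-2 and IL-15 receptor chain, was seen in all 171 WT and 89 KO members and stood at 836 and 827 CPM. Ccnd2, cyclin D2 of G1 phase, had ratios of 0.630 and 0.484.

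As a like class, cycling CD8 T cells gave a similar order of cycle lists against the other CD8 T cells: medians of 3.33 and 4.48 for S phase and 10.9 and 10.8 for spindle genes, WT and KO. There, 6.09% of all measured genes were at least 2-fold higher and 3.81% lower in WT, and 6.35% and 1.29% in KO. Effector cytokine genes had a median of 0.916 and 0.717 in CD8 T cells and 0.744 and 0.493 in NK cells. The interferon-stimulated list had a median of 0.529 in WT CD8 T cells and 0.820 in WT NK cells. Whether these classes differ was not tested.

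Under the main rule, S-high members, a call set out next, had like shares in the matrices. Each cell's S phase and G2 and M phase UMIs were scaled to 2000 UMIs per cell, and a cell was called S-high where its S phase sum was the larger share of that list's total over all members. S-high cells were 99 of 171 in WT (57.9%, 50.1 to 65.4) and 50 of 89 in KO (56.2%, 45.3 to 66.7). The call is a range of a score and not a type: 33 WT and 17 KO cells lay within 2 UMIs of the limit. The limit lay at 2.10 G2 and M phase UMIs per S phase UMI. Members with 2 UMIs of Mki67 plus Top2a were low in both lists and, summed, on the S-high side. They held 1560 S phase and 2158 G2 and M phase CPM in WT, and 1790 and 1997 in KO. With at least 4 UMIs of Mki67 plus Top2a the S-high shares were 56.7% in WT and 48.3% in KO. Without cells holding a UMI of other lineages (any of Cd8a, Cd8b1, Cd4, Trac, Cd79a, C1qa or C1qb) they were 61.9% and 52.1%. Such a UMI can also come from free RNA, so the cells left out need not be of another lineage. Median S phase UMIs per 2000 were 5.59 in WT and 4.86 in KO members, against 1.93 and 1.99 in the other NK cells. For G2 and M phase they were 11.2 and 10.6, against 3.19 and 3.28. A sum of both lists above the other NK cells' 95th percentile was reached by 114 WT members (66.7%) and 64 KO members (71.9%).

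Between S-high and the remaining, G2M-high members, genes outside the scored pair of lists also separated. The genes named for this were chosen after their values were seen. Ube2c, the ubiquitin-conjugating enzyme of the anaphase-promoting complex and a gene of the scored list, stood at 40.0 CPM in S-high and 544 in G2M-high WT cells. Outside the scored lists, Arl6ip1 had G2M-high over S-high ratios of 3.27 in WT and 3.05 in KO, and Prc1, which bundles the midzone microtubules, 3.58 and 2.34. Mcm3 and Lig1 (the ligase that joins Okazaki fragments) had ratios of 0.440 and 0.375 in WT and 0.347 and 0.380 in KO. Summed nutrient and ribosome biogenesis genes stood at 7309.6 CPM in S-high and 5428 in G2M-high WT cells, and at 8009 and 7290.0 in KO. Cytotoxic granule genes were 19206 and 18366 CPM in WT and 29966 and 26849 in KO, close within each matrix and higher in KO in both groups.

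**Figure D2:**
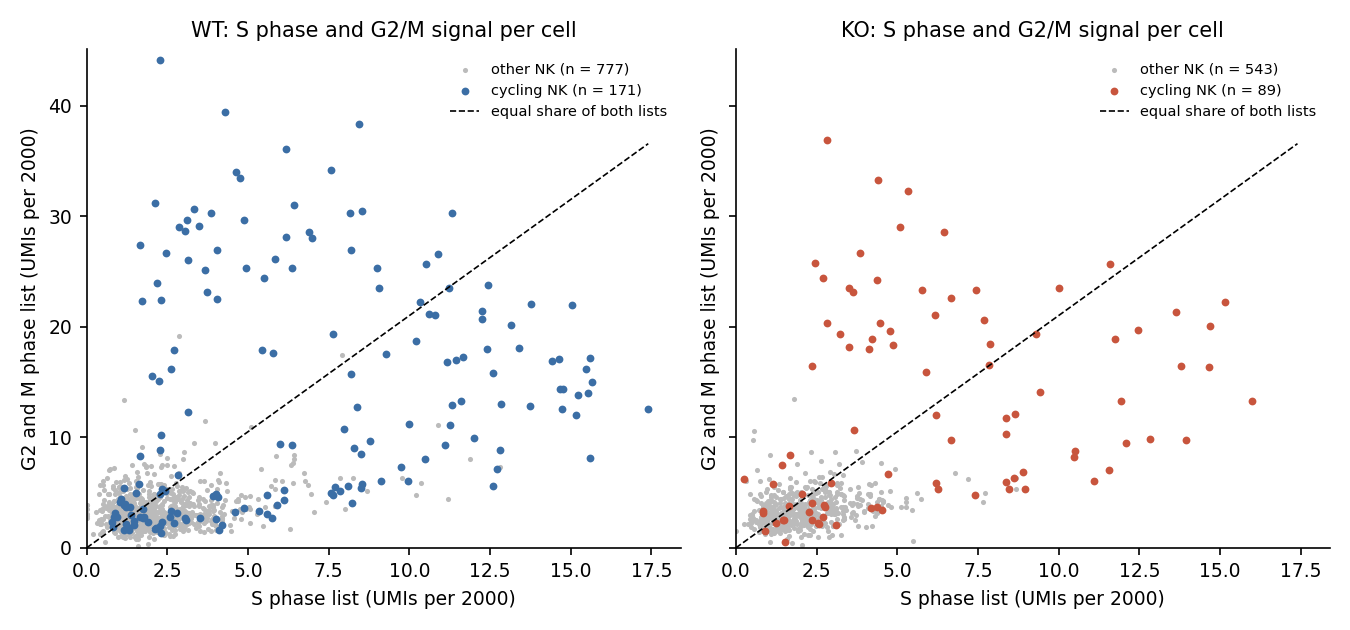
S phase against G2 and M phase UMIs per 2000 UMIs for every NK cell, with the other NK cells in grey and the members in colour, 1 panel per matrix; the dashed line is the equal-share limit. Members form an arc from S phase to G2 and M phase, with medians of 5.59 and 11.2 in WT and 4.86 and 10.6 in KO, and some members lie within the grey cells.

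KO cycling NK cells showed lower immediate early, interferon-stimulated and cytokine genes and higher granzyme genes than WT cycling NK cells. Of 6116 measured genes, 142 (2.32%) were at least 1.5-fold higher and 437 (7.15%) at least 1.5-fold lower in KO, with a median ratio of 0.979. In the other NK cells, which hold more UMIs, 70 of 5878 (1.19%) were higher and 171 (2.91%) lower. With the members of 2 or 3 UMIs of Mki67 plus Top2a left out, the numbers were 210 and 536.

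**Figure D3:**
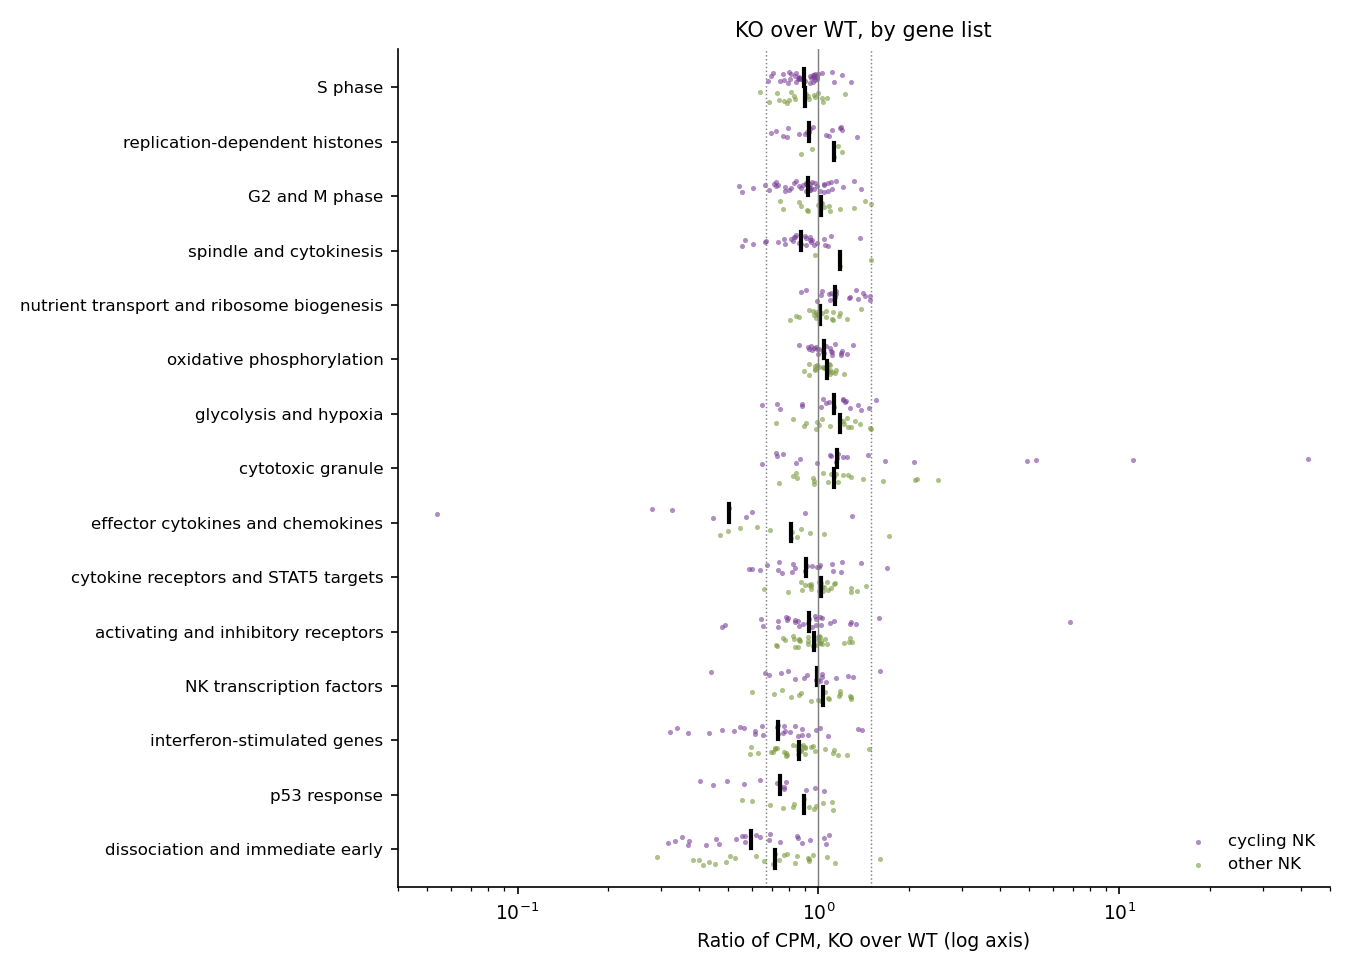
Ratio of CPM in KO over WT for each measured gene, by gene list, on a log axis, in cycling and in other NK cells; dotted lines mark 1.5-fold and the black bar is the list median. The immediate early list (median 0.596) and the cytokine list (0.503) sit left of 1 in cycling cells, and granzymes form the right tail.

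S phase, origin and histone genes had no member past 1.5-fold, and mitotic lists had a few, each of them lower in KO. S phase genes had 0 of 38 higher and 0 lower in KO (median 0.894), origin and fork genes 0 and 0 of 37 (median 0.883), and histones 0 and 0 of 18 (median 0.931). Lower genes numbered 4 of 43 in the G2 and M phase list (median 0.919), 4 of 29 in the spindle list (median 0.873), 3 of 26 in the kinetochore list (median 0.897), 2 of 17 among cyclins and mitotic kinases (median 0.856) and 3 of 19 among regulators (median 0.888), beside 7.15% lower over all genes, and none of these 5 lists had a higher gene. In the G2 and M phase list they were Gas2l3, Anln, Ckap2l and Hmmr, with ratios of 0.545, 0.557, 0.607 and 0.662; the last 3 are also on the spindle list, beside Kif20a, a cytokinesis motor (0.568). The lower kinases were Wee1, which holds back Cdk1, and Pbk, with ratios of 0.470 and 0.626. The lower kinetochore genes were Ska2 (0.581), the cohesin protector gene Sgo2a (0.640) and Cenpc1 (0.657). Apart from Hmmr and Cenpc1, each of these had under 100 UMIs in WT members. Of 26 nucleotide synthesis genes, Shmt2 was higher (1.68) and the thymidine kinase gene Tk1 lower (0.663). Among regulators, the G1 cyclin gene Ccnd3 stood at 103 CPM in WT and 59.8 in KO. Myc, which drives cell growth and entry into the cycle, stood at 114 and 42.6 CPM in cycling and 86.5 and 38.9 CPM in other NK cells. The Cdk inhibitor gene Cdkn1b was also lower, at 82.3 and 43.1 CPM. Ccnd3, Myc and Cdkn1b were chosen after their values were seen.

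Nutrient and ribosome biogenesis genes had 0 of 21 past 1.5-fold and a median of 1.14 in KO cycling cells, against 1.01 in the other NK cells. Eif5a, a translation factor, stood at 695 CPM in WT and 1027 in KO, and the nucleolin gene Ncl at 791 and 1003. Glycolysis genes had a median of 1.13, with Eno1 at 348 and 513 CPM and Ldha at 722 and 977 CPM. Oxidative phosphorylation genes had a median of 1.04 and no member past 1.5-fold.

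Granzyme genes were higher in KO cycling cells. Of 21 measured granule genes, 6 were at least 1.5-fold higher and 1 lower, with a median of 1.15, and all 6 of the higher genes were granzymes, the proteases that enter target cells through perforin pores. Gzmb stood at 2183 CPM in WT and 4519.6 in KO cycling cells, a ratio of 2.07 (interval 2.002 to 2.14), and at 2407 and 3945 CPM in other NK cells. Its median per cell was 1206 CPM over the 171 WT and 2692 over the 89 KO members, and the 90th percentiles were 4994 and 9116, so the shift lay across the cells. Gzma, a granzyme of resting NK cells too, stood at 6779.7 and 7754 CPM, and Prf1 at 793 and 956 CPM. Cst7, a cystatin that limits granzyme-activating proteases, was the 1 lower gene, with a ratio of 0.650.

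For Gzmc the mean and the typical cell parted. Summed, it stood at 4519 CPM in WT and 7543 in KO cycling cells, a ratio of 1.67, yet the median cell held 1359 CPM in WT and 873 in KO. The 90th percentiles were 9363 and 17435 CPM, so the KO excess lay in the upper cells. The ratio was 1.37 with every cell weighted equally and 1.44 with cells thinned to 2000 UMIs. Gzmc was seen in 134 of 171 and 67 of 89 cells. In other NK cells the ratio was 0.968.

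The neighbouring granzymes d to g rested on still fewer cells. Gzmd stood at 305 CPM in WT and 1498 in KO and was seen in 19 WT and 25 KO cells; Gzme stood at 160.3 and 849 CPM in 15 and 22 cells. Gzmg had the largest KO to WT ratio of any gene named by rule, 42.4 (31.2 to 59.1), but came from 6 WT and 9 KO cells, with 66.2% of the KO UMIs in 1 cell. Gzmf (ratio 11.1) had 73.5% in 1 cell, and its ratio was 5.95 without cells holding a UMI of other lineages and 5.93 with every cell weighted equally. For Gzmg the ratio ran from 15.6 with no Cd3 UMI to 301 with at least 4 UMIs of Ncr1 plus Klrb1c. Over the 4 genes together, 13 WT and 20 KO cells held at least 10 UMIs, and 3 cells held 72.3% of the WT and 58.6% of the KO UMIs. Without the 3 cells richest in each gene the ratios were 10.9 for Gzmd, 9.24 for Gzme and 23.1 for Gzmg. These genes form 1 cluster of near-identical copies with Gzmc, so how UMIs split among them is uncertain.

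**Figure D4:**
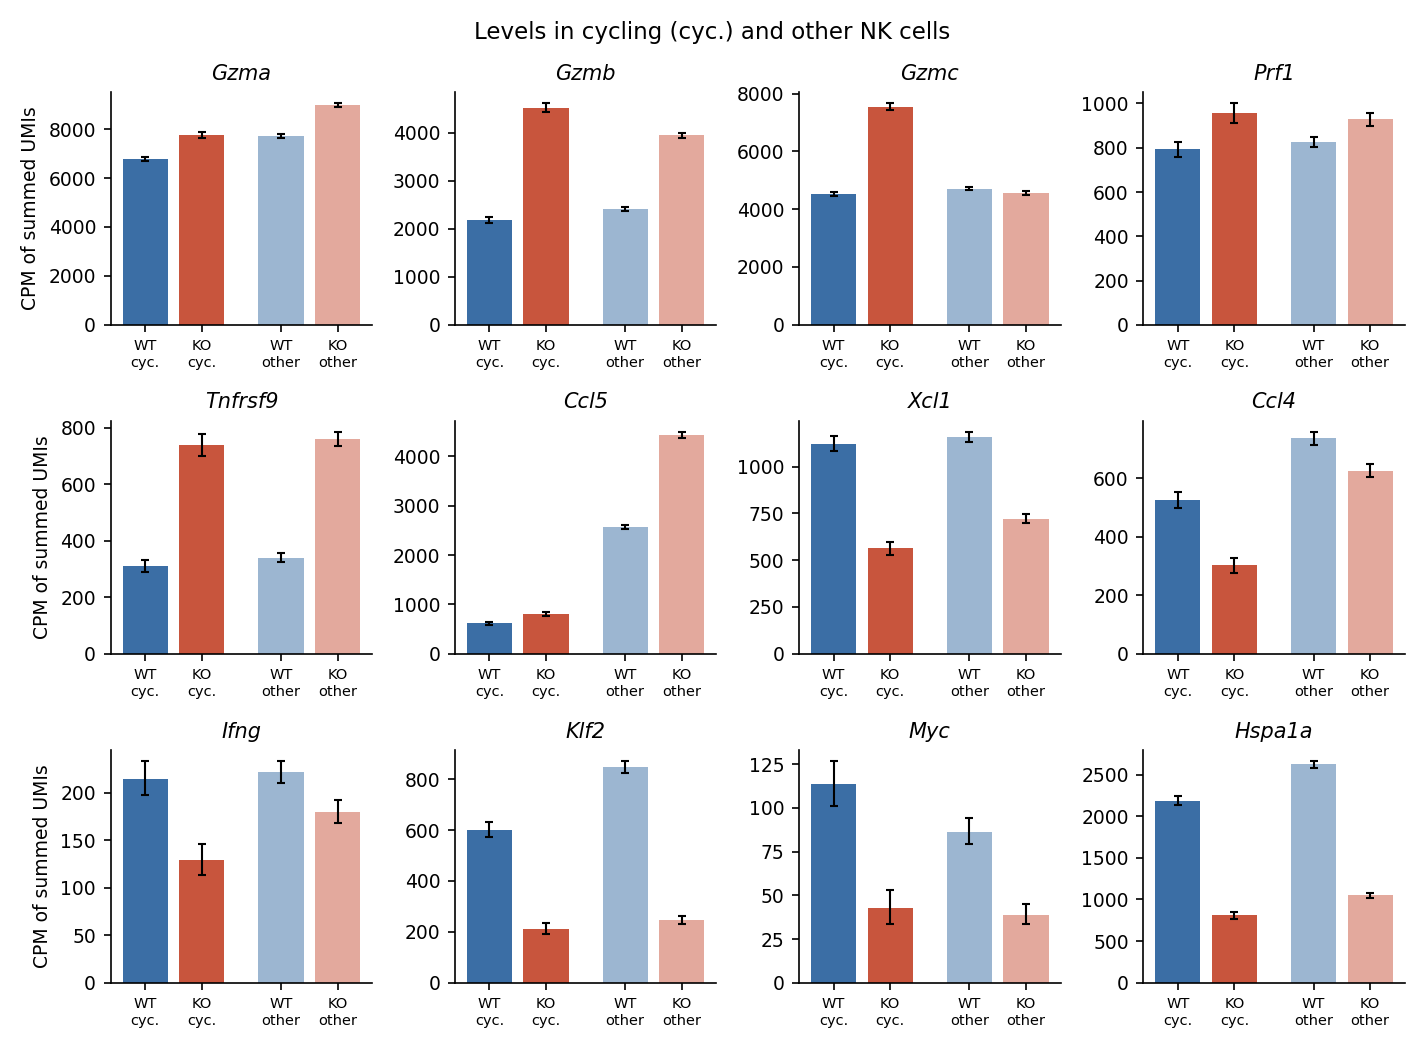
Level (CPM, with 95% Poisson intervals) of 12 genes in cycling and other NK cells of WT and KO. Gzmb and Tnfrsf9 are higher in KO in both classes, Xcl1, Klf2, Myc and Hspa1a lower in both, and Ccl5 is lower in cycling than in other cells of either matrix; the genes were chosen with their values known.

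Most surface receptors stayed within 1.5-fold. Receptors as a list had 2 of 30 higher and 4 lower (median 0.927), and cytokine receptors and STAT5 targets 1 of 22 higher and 3 lower (median 0.908). Tnfrsf9 (4-1BB), a costimulatory receptor that appears on activated NK and T cells, stood at 312 CPM in WT and 737 in KO cycling cells and at 340.4 and 759 CPM in other NK cells. It was seen in 141 of 171 WT and 84 of 89 KO members, with per-cell medians of 192 and 582 CPM. In cycling CD8 T cells its KO to WT ratio was 1.76. In macrophages Tnfrsf9 was seen in 80 of 1294 WT and 269 of 1318 KO cells (1.70% and 7.85% when thinned to 2000 UMIs), so it was higher in KO there too. Il2ra, the high-affinity IL-2 receptor chain, stood at 41.0 and 69.0 CPM, and Klrg1, an inhibitory receptor of mature NK cells, at 64.9 and 104 CPM. Among the lower genes were receptors for IL-18 and IL-12: Il18r1 stood at 93.6 and 55.0 CPM and Il12rb2 at 232 and 148 CPM. Cd226 and Crtam, activating receptors that bind nectin-family ligands, had ratios of 0.479 and 0.490. Klra5, with a ratio of 6.83 (12.7 without the 3 richest cells, 4.40 without cells holding a UMI of other lineages and 4.51 with every cell weighted equally), came from 8 and 10 cells and belongs to a family of similar genes.

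Effector cytokine genes were lower in KO cycling cells. Of 9 measured, 7 were at least 1.5-fold lower and 0 higher, with a median of 0.503; in other NK cells 4 of 12 were lower and 1 higher (median 0.811). With cells thinned to 2000 UMIs the median in cycling cells was 0.780. Xcl1, which draws cross-presenting dendritic cells, stood at 1122 CPM in WT and 564 in KO cycling cells and at 1158 and 722 CPM in other NK cells. It was seen in 124 WT and 54 KO members, and with every cell weighted equally its ratio was 0.762 in place of 0.503. Ifng, interferon-gamma, stood at 215 and 129 CPM, but its median per cell was 40.3 and 41.0 CPM and its 90th percentile 573 and 559 CPM. Its ratio of 0.599 was 0.756 with every cell weighted equally, 0.854 thinned to 2000 UMIs and 0.707 with no Cd3 UMI, so it passed 1.5-fold under none of these. Ccl4 and Ccl3, which attract myeloid cells and lymphocytes, had ratios of 0.574 (0.791 with at least 4 UMIs of Ncr1 plus Klrb1c and 0.685 with no Cd3 UMI) and 0.445, and Tnf and Ltb 0.280 and 0.325. Ccl5 stood apart at 617 and 798 CPM, a ratio of 1.29.

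Some of the largest ratios rested on single cells. Ccl2 stood at 68.2 and 3.23 CPM, with 80.3% of the WT UMIs in 1 cell and a ratio of 0.0474 that became 0.104 without the 3 richest cells. Ccl1 (49.0 and 2.16 CPM) was seen in 3 WT and 2 KO cells. Csf2, the GM-CSF gene, stood at 39.9 and 2.16 CPM, with 56.4% of WT UMIs in 1 of 16 cells, and Areg at 34.8 and 5.93 CPM with 56.2% in 1 cell (ratio 0.170, and 0.284 without 3 cells). The cell richest in Ccl2 and Areg was the doublet that held the keratin UMIs. Ifitm1, higher in KO at 160.1 against 43.9 CPM, had 50.5% of KO UMIs in 1 cell.

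Mid1, a microtubule-linked ubiquitin ligase gene, stood at 84.2 CPM in WT and 10.8 in KO and was seen in 88 and 11 cells, a ratio of 0.128 (0.0808 without the 3 richest cells). Its ratio was 0.115 in other NK cells, 0.169 in cycling CD8 T cells and 0.210 in macrophages, so it was low in every KO class compared. Id3, an inhibitor of E-protein transcription factors, stood at 61.7 and 12.4 CPM, a ratio of 0.201 that was 0.337 without doublets and 0.360 with every cell weighted equally; it was seen in 36 WT and 11 KO cells, with 38.2% of the WT UMIs in 1 cell. Cited4 stood at 39.2 and 9.16 CPM in 55 and 11 cells, a ratio of 0.234 (0.151 without 3 cells). Higher in KO by rule were also Frmd5 (14.9 and 44.2 CPM, a ratio of 2.97 that was 1.22 without cells holding a UMI of other lineages) and Ttc39c (19.2 and 50.7 CPM).

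NK identity factors kept close levels with 3 exceptions past 1.5-fold. Eomes stood at 170.1 CPM in WT and 169 in KO and Id2 at 975 and 1114. Tbx21 (T-bet) stood at 147 and 97.0 CPM and Tox had a ratio of 0.440, while Zbtb32 had 1.60. The list gave 1 of 18 higher and 2 lower (median 0.990). Mature NK markers gave 3 higher, Klrg1, Ly6c2 (143 and 241 CPM) and Lgals3 (108 and 209.7 CPM), and 1 lower, Klf2. Without cells holding a UMI of other lineages, the Ly6c2 ratio of 1.68 was 1.34 and the Lgals3 ratio of 1.95 was 1.20. Immature NK markers gave 3 of 9 lower (median 0.752; other NK cells 0.776), Ltb, Xcl1 and Cd7. Ly6c2 is also a marker of the monocyte list.

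Immediate early and stress genes, which cells switch on within minutes of a stimulus and which warm tissue digestion can also raise, were lower in KO. Of 24 measured, 14 were at least 1.5-fold lower and 0 higher (median 0.596), against 11 of 25 in other NK cells (median 0.716) and 8 of 25 in macrophages (median 0.767), where 79 of 5950 genes (1.33%) were lower. The heat-shock gene Hspa1a stood at 2184 CPM in WT and 809.7 in KO cycling cells and 2621 and 1049 CPM in other NK cells; reads of Hspa1a and its near-copy Hspa1b may be exchanged. Klf2, a quiescence and trafficking factor, stood at 602 and 212 CPM, with per-cell medians of 319.8 and 61.9. Its ratio of 0.352 was 0.532 with cells thinned to 2000 UMIs. The per-cell medians of Klf2 were also lower in KO in other NK cells (386.6 and 118.4 CPM) and in macrophages (703.6 and 419.8 CPM). Fos stood at 328 and 104 CPM and Jun at 542 and 288, while Jund stood at 1326 and 1381. The ratio for Hspa1a was 0.630 in cycling CD8 T cells and 0.608 in macrophages, so it was lower in KO in each class named. Summed, the list stood at 18511 CPM in WT and 11055 in KO members and at 30231 and 24154 CPM in empty barcodes. Whether free RNA or handling of the tissue had a part in this was not tested, and handling and genotype cannot be told apart with 1 matrix each.

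Interferon-stimulated genes were also lower in KO cycling cells, with 12 of 29 at least 1.5-fold lower and 0 higher (median 0.733). In other NK cells 3 of 32 were lower and 0 higher (median 0.865). In cycling CD8 T cells 0 of 32 were lower and 3 higher (median 1.13), beside 1.87% and 1.81% of all genes there. In macrophages 0 of 36 were lower and 9 higher (median 0.968), beside 1.33% and 3.53% of all genes there. The antiviral genes Isg15, Ifit1 and Mx1 stood at 193, 55.5 and 23.9 CPM in WT and at 92.2, 20.5 and 8.09 in KO. Ifih1, an RNA sensor, stood at 85.6 and 16.2 CPM and is the gene of this kind named by rule. It was seen in 41 WT and 9 KO members, with 54.2% of the WT and 66.7% of the KO UMIs in 3 cells. Without the 3 richest cells its ratio was 0.142. Ly6a went the other way at 196 and 266 CPM. Genes of tissue residency gave 1 of 8 higher and 1 lower (median 0.918), and genes of OGT and the hexosamine pathway 0 and 0 of 6 (median 0.882). The p53 response list had 5 of 13 lower (median 0.743), among them Fas (0.447) and Plk2 (0.405).

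Set beside cycling CD8 T cells, the same lists gave KO to WT medians of 0.963 for immediate early genes, 1.06 for cytokines and 1.06 for granule genes, where NK members had 0.596, 0.503 and 1.15. In those CD8 T cells 114 of 6306 genes (1.81%) were at least 1.5-fold higher and 118 (1.87%) lower. Past the same fold there, 6 of 24 immediate early genes were lower and 1 higher. Granule genes gave 5 of 22 higher and 1 lower, and cytokines 4 of 11 higher and 1 lower. In other NK cells 4 of 21 granule genes were higher and 0 lower (median 1.12). All classes of a genotype come from 1 matrix and share its handling, and fewer cells of a kind cannot be told apart from a changed level within cells where a gene is seen in part of them.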

How the data were processed

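CD45+ cells from MC38 tumours were measured by single-cell RNA-seq, 1 matrix per genotype (WT and KO, with 2 labelled samples each). Per the file headers, the deposited files hold raw UMI counts per gene and barcode from Cell Ranger 8.0.1, with all barcodes included; per the submitters' processing notes, the build was mm10. The droplet chemistry and other settings were not given in the sources used here. Other assays of the series were not used here.

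The matrices held 85755359 (WT) and 85418469 (KO) UMIs over 1210511 and 1257581 barcodes, of which 10213 and 10086 passed the limits of 1000 UMIs, 500 genes and 10% mitochondrial UMIs. Cells were classed by raw UMIs of the rule genes, with no clustering. UMIs were summed per class and divided by the class total (CPM). Genes with 50 UMIs over both groups and 20 CPM in 1 were measured and counted at 1.5-fold (KO and WT) or 2-fold (cycling and other). No test was run, since cells are not replicates. Poisson, conditional and Clopper-Pearson intervals (95%) cover counting error only and treat UMIs as independent. Doublets were called with Scrublet in scanpy 1.11.5 on each matrix (501 WT and 319 KO cells) and kept, except in 1 alternative. Thinned values are exact expected values over all ways of drawing 2000 or 4000 UMIs from a cell. NK, CD8 T and macrophage classes were still called at full depth. The expected values replaced single random draws, which varied with the seed, after values were seen. Python 3.11.15, numpy 2.4.6, scipy 1.17.1, pandas 2.3.3 and matplotlib 3.10.9 were used, and the counting code was tested on simulated data.

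The members, the 26 gene lists and the 17 marker lists were chosen with earlier results of these data known. Genes named by rule were Ogt, Egr2 and Lyz2, the 8 largest ratios each way in each comparison among genes with 100 UMIs (in both matrices for cycling over other), up to 4 of the most abundant members of each list, and all markers; mitochondrial, haemoglobin, predicted, receptor-segment, Xist and Y-linked genes and the rule genes were left out of the largest ratios. Other genes named were chosen after their values were seen, as were the macrophage class (at least 2 UMIs of Csf1r plus Adgre1 and none of the NK and Cd3 genes), the KO to WT values in macrophages and CD8 T cells, the levels in empty barcodes (at most 50 UMIs), the values without 3 cells and the promoters printed. Alternatives changed the doublet, mitochondrial, depth, NK, Cd3, lineage and cycling limits, thinning, cell weights, scaling, a pseudocount of 5 CPM and the filter on low counts. Promoter windows are from RefSeq (GRCm38.p6).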

Additional observations from a re-analysis of the deposited data

How the results depend on the processing

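No replicate could be left out with 1 matrix per genotype. No paired analysis was possible because the samples sharing a number could not be told apart in 1 matrix per genotype and no test was run. Of 150 main values recomputed under alternatives, 106 stayed close to their value and 44 moved, and among single genes and lists 5043 stayed, 734 moved and 1 turned round: Ifitm1 in cycling over other KO NK cells was 0.778 when thinned to 2000 UMIs.

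The percent of NK cells cycling was 24.1 in WT and 20.5 in KO with at least 4 UMIs of Ncr1 plus Klrb1c, 15.2 and 10.9 without cells holding a UMI of other lineages, 11.0 and 9.45 with at least 4 UMIs of Mki67 plus Top2a, 6.85 and 4.56 thinned to 2000 UMIs and 11.9 and 9.15 thinned to 4000. Of kept cells, cycling NK cells were 1.39% and 0.684%, 1.03% and 0.476%, 1.02% and 0.595%, 0.678% and 0.304%, and 1.37% and 0.698% in the same order, and 1.31% in WT with no Cd3 UMI. Every such KO value was below its WT value. 

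Genes at least 1.5-fold higher and lower in KO cycling cells numbered 228 and 755 without cells holding a UMI of other lineages, 11 and 22 thinned to 2000 UMIs (550 genes measured), and 27 and 51 thinned to 4000 (2131 measured). They numbered 210 and 536 with at least 4 UMIs of Mki67 plus Top2a, 94 higher with a pseudocount of 5 CPM, 1143 and 2158 with no filter, and 47 and 164 at 200 UMIs. Genes at least 2-fold higher and lower in cycling over other NK cells are given next. In WT they were 182 lower with at least 4 UMIs of Mki67 plus Top2a, 147 higher thinned to 2000, 251 higher thinned to 4000, 42 lower with the pseudocount, 2002 and 851 with no filter and 185 higher at 200 UMIs. In KO they were 461 lower without cells holding a UMI of other lineages, 92 and 111 thinned to 2000, 155 and 123 thinned to 4000, 131 lower with the pseudocount, 1744 and 1172 with no filter, and 157 and 130 at 200 UMIs. Fewer genes pass the filter under thinning and at 200 UMIs; for the other settings the cause was not tested. Median-ratio scaling divided ratios by factors of -0.03 (KO over WT), -0.01 and -0.06 in log2 (cycling over other, WT and KO), so ratios rose by as much.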

Other observations

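Within the cycling NK cells, gene groups outside the cycle also stood at other levels in S-high and G2M-high cells, given as values with no test. In WT, the 26 immediate early genes summed to 16050.5 CPM in S-high and 22330 in G2M-high cells, and in KO to 10330.5 and 11918. Cell cycle inhibitors summed to 2265 and 3209 CPM in WT and to 1896 and 2128 in KO. Effector cytokines stood at 2476 and 3515 CPM in WT and 1790.2 and 2202 in KO. The KO values were the lower ones in both groups for each of these 3 lists. Median depth was 16577 UMIs in S-high and 13970 in G2M-high WT cells, and 17650.5 and 19719 in KO.

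Cdkn2d, an inhibitor of Cdk4 and Cdk6, was on the G2M-high side, with G2M-high over S-high ratios of 2.20 in WT and 2.23 in KO, as was the histone variant gene H2ax with 2.46 and 2.66. The folate enzyme gene Mthfd1l was on the S-high side, with 0.532 and 0.361. They were picked once their values were known.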
